A study of Homo sapiens with 6 samples.

Results

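The transcripts examined here are the NF-kappa-B subunits NFKB1, NFKB2, RELA and RELB, the inhibitors NFKBIA, NFKBIE and BCL3, and the feedback target genes TNFAIP3, BIRC3 and ICAM1, in SW480 cells with and without knockdown of heparanase (HPSE). They were chosen by gene symbol for their role in the pathway, and all 10 of the 10 were found among the 59192 features of the deposited table. SW480 is a human colorectal adenocarcinoma line. SW480-NC carries Cas9 and a control guide RNA, and SW480-KD1 carries Cas9 and a guide against HPSE. Both lines were made from SW480 cells selected for Cas9 with puromycin and then infected with a guide vector that also encodes EGFP. In the labels the knockdown line appears as SW480-45; the only knockdown line that the study's text says was sequenced is SW480-KD1. RNA from 3 independent experiments per line was sequenced, so the 3 libraries of a group are cultures of a single cell line, and an effect of the guide cannot be told apart from another difference between these lines. Ages, donors and treatments do not enter the comparison.

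NF-kappa-B is a family of dimeric transcription factors. In resting cells the dimers are held in the cytoplasm by inhibitor proteins, and the IKK kinases mark these inhibitors for degradation when a receptor for tumor necrosis factor, interleukin-1 or bacterial products is engaged. RELA dimers carry the canonical response, and NFKB2 processing with RELB carries the noncanonical response. The released dimers switch on their own inhibitors and several brakes of the signal, so that transcripts such as NFKBIA and TNFAIP3 are commonly read as a record of pathway activity. In the colon epithelium the pathway links inflammation to survival and chemokine production.

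Feedback genes of the pathway are known to carry NF-kappa-B sites near their starts, so their promoters are shown first. Promoter windows from RefSeq (GRCh38.p14), each from 250 bases before to 50 bases after a transcription start, matched 8 of the 10 genes, in 12 windows. The NF-kappa-B consensus of 10 bases was searched on both strands as GGGRNNYYCC, where R is A or G, Y is C or T and N is any base. It was present in 7 of these windows and in 6 of the 8 genes, NFKB1, NFKB2, NFKBIA, TNFAIP3, BIRC3 and BCL3. Over all 35116 windows of this length, 11.3% held a match. By gene, 13.3% of 27305 genes had at least 1 window with a match. A match is a description of these letters and not a measured binding site. The matched stretches are shown with 20 bases on each side, read 5′ to 3′ along the gene, with the match in capitals.
NFKB1 (chr4:102501290-102501339, plus strand): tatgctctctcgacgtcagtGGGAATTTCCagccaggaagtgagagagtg
NFKB2, upstream start (chr10:102394451-102394529, plus strand): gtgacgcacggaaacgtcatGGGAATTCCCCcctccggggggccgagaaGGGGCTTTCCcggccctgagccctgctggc
NFKB2, downstream start (chr10:102395664-102395713, plus strand): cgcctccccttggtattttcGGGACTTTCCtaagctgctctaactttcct
NFKBIA (chr14:35404801-35404850, minus strand): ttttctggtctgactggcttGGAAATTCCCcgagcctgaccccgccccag
TNFAIP3 (chr6:137867172-137867233, plus strand): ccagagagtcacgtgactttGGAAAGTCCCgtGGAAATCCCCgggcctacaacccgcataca
BIRC3 (chr11:102317265-102317378, plus strand): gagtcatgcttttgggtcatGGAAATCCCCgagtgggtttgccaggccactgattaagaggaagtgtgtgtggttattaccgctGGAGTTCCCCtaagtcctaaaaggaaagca
BCL3 (chr19:44748690-44748739, plus strand): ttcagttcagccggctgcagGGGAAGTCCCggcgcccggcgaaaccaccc

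The first capital run of NFKB2 holds 2 matches that overlap on opposite strands, and a further match lies 176 bases before its downstream start. NFKB2 had another window still further upstream (chr10:102393860-102394159), which held no match. The start called upstream here is therefore the upstream one only among its starts with a match. TNFAIP3 and BIRC3 hold 2 matches each. The nearest match to a start was in BCL3, 2 bases after it, and the match of NFKBIA lay 81 bases before the start. The windows of RELA and ICAM1 held no match to these letters. That of ICAM1 held tggaaattcc, which differs from the consensus in its first letter only, so a missing match does not mean a missing site. RELB and NFKBIE had no window in the table.

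The values compared are normalized counts, gene counts that the authors divided by a size factor per library. The 6 libraries held between 33221323 and 39802365 reads on the features. HPSE RNA, the target of the guide, was at 136.0, 172.5 and 146.0 normalized counts in SW480-KD1 and 269.9, 294.6 and 246.0 in SW480-NC. The groups did not overlap, and 56.1% of the SW480-NC level was present in SW480-KD1 (log2 fold change −0.83, standard error, SE, 0.14; limma, adjusted p = 0.0547). This is RNA only. The guide directs Cas9 to cut an exon of the gene, so RNA that remains need not encode intact protein. The study reports the loss of HPSE protein in this line from western blots, which the values here do not measure. Of the 8 markers of colon epithelium in the table, 7 passed the minimum for testing, EPCAM at a mean of 17564 in SW480-KD1 and 18657 in SW480-NC, CDX2 at 28.8 and 34.0, and CDH17 at or near 0. KRT20 fell to 4541 ± 82.3 from 7952 ± 619 (SD, n = 3), by limma a change of −0.81 on the log2 scale (adjusted p = 0.00719), with an adjusted p of 0.0859 when limma's trend option was off. The summed epithelial markers were 123150 to 132077 in SW480-KD1 and 141385 to 150924 in SW480-NC, and KRT8 made up most of the sum, with means of 75512 and 87410. VIL1 pointed the other way, with 9094 ± 360 in SW480-KD1 and 7902 ± 539 in SW480-NC (SD, n = 3), without overlap (log2 fold change 0.20; limma, adjusted p = 0.225). Of markers of other cell types, summed endothelial markers were 28 to 43.2 in SW480-KD1 and 12.6 to 26.5 in SW480-NC, with CDH5 at 0 in 5 of 6 libraries, and summed fibroblast markers were 279.8 to 387.4 and 228.9 to 262.6, with LUM at 3.77 or less. Among the blood cell markers LYZ was high in every library, from 59444 to 71955 normalized counts, lower in SW480-KD1 without overlap. The part of these marker differences in the results was not tested. In bulk RNA, fewer cells that express a gene and less RNA per cell cannot be told apart.

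With limma on log2(normalized count + 1) over 21703 features, 0 of the 10 genes passed an adjusted p of 0.05, against 0.802% of all features tested, 0.332% higher and 0.470% lower in SW480-KD1. Tests on the whole reads behind the values with edgeR and DESeq2 also called 0 of the 10 at an adjusted p under 0.05. There edgeR called 0.627% of the 21703 features, and DESeq2 called 4.74% of the 16198 to which it gave an adjusted p. At an unadjusted p under 0.05, limma separated 3 of the 10, NFKB1 and TNFAIP3 with lower levels in SW480-KD1 and NFKB2 with higher ones. The same threshold was met by 16.2% of all features, 8.10% higher and 8.15% lower in SW480-KD1. In 6 of the 10 genes the libraries of the lines did not overlap, 3 higher and 3 lower in SW480-KD1, where 23.4% of all features showed no overlap, 11.4% higher and 12.0% lower. Genes with a match to the consensus lay on both sides, with NFKB2 and NFKBIA higher and NFKB1, TNFAIP3 and BIRC3 lower. The median log2 fold change of the 10 genes was 0.07, and that of all features was −0.00482. The genes of the pathway therefore pointed in both directions, with fold changes from −0.52 to 0.55 on the log2 scale. For a single gene, an exact permutation test of 3 libraries against 3 cannot go below 0.1.

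The precursor subunits NFKB1 and NFKB2 pointed in opposite directions. NFKB1 (ENSG00000109320), whose precursor is processed to the usual partner of RELA, lies on chromosome 4 from 102501329 to 102617302 (plus strand, GRCh38, GENCODE 29). It had 1723, 1682 and 1802 normalized counts in SW480-KD1 and 2019, 2115 and 2237 in SW480-NC. Every SW480-KD1 library was below every SW480-NC library. The means were 1736 ± 61.3 and 2124 ± 109 (SD, n = 3), a log2 fold change of −0.29 (SE 0.08, 95% interval −0.47 to −0.11; limma, adjusted p = 0.140). NFKB2 (ENSG00000077150), the precursor of the noncanonical pathway, lies on chromosome 10 from 102394110 to 102402529 (plus strand). Its values were 1078, 952.8 and 990.1 in SW480-KD1 and 761.5, 756.2 and 859.9 in SW480-NC. Here every SW480-KD1 library was above every SW480-NC library. The means of 1007 ± 64.1 and 793 ± 58.4 (SD, n = 3) gave a log2 fold change of 0.35 (SE 0.10, 95% interval 0.12 to 0.57; limma, adjusted p = 0.156). Whichever of the 6 libraries was left out, both genes kept an unadjusted p under 0.05 from limma, at 0.0211 or less for NFKB1 and 0.0336 or less for NFKB2.

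The ratio of the precursors within a library does not depend on how libraries are scaled. NFKB2 stood at 0.625, 0.567 and 0.549 of NFKB1 in the SW480-KD1 libraries and at 0.377, 0.358 and 0.384 in the SW480-NC libraries. The groups were apart, with means of 0.580 ± 0.0399 and 0.373 ± 0.0139 (SD, n = 3). The ratio was thus 1.55-fold higher in SW480-KD1, a log2 difference of 0.64. An exact two-sided permutation of the libraries gave p = 0.1, the smallest value possible here. Every SW480-KD1 library was already above SW480-NC for NFKB2 and below it for NFKB1. The separation of the ratio and this p were therefore fixed by the single genes and add no further evidence. Among 6 ratios compared in this way the Benjamini-Hochberg adjusted exact p was 0.3. Leaving out each library moved the log2 difference only between 0.58 and 0.67.

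The transactivating subunits RELA and RELB overlapped between the lines. RELA (ENSG00000173039, chromosome 11, 65653596 to 65663094, minus strand) had 2343, 2149 and 1858 normalized counts in SW480-KD1 and 2086, 1841 and 780.4 in SW480-NC. The last value, that of SW480-NC replicate 3, was far below the other 5 and rested on 736 reads. Of the 12466 features that averaged 100 normalized counts or more, 182 (1.46%) had a lone library below 0.5 times the lowest of the other 5, and in 34 of the 12466 (0.273%) that library was SW480-NC replicate 3. The log2 fold change of RELA was 0.55 (SE 0.34, 95% interval −0.24 to 1.33; limma, adjusted p = 0.465), and 0.10 without that library. The size of this difference thus rests on SW480-NC replicate 3. RELB (ENSG00000104856, chromosome 19, 45001430 to 45038198, plus strand), the partner of processed NFKB2, was the subunit with the fewest reads. It had 137.1, 202.3 and 143.2 in SW480-KD1 and 129.7, 181.6 and 149.5 in SW480-NC. Both groups spanned nearly the same range, and the log2 fold change was 0.06 (95% interval −0.41 to 0.53, adjusted p = 0.915 from limma). This interval leaves room for a change of either sign. The RELB to RELA ratio was 0.0766 ± 0.0178 in SW480-KD1 and 0.117 ± 0.0667 in SW480-NC (SD, n = 3), with overlap (exact permutation p = 0.4). Its log2 difference of −0.49 became −0.06 when SW480-NC replicate 3 was left out, and −0.87 when replicate 1 of that line was.

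Levels of the 4 subunits were also compared per kilobase of annotated exon. That length joins the exons of all annotated transcripts of a gene, and the transcripts present may be shorter. Comparisons between genes therefore depend on the annotation. As a share of their summed level, RELA took 37.9% to 43.3% in SW480-KD1 and 19.3% to 41.6% in SW480-NC. NFKB1 took 27.8% to 32.1% in SW480-KD1 and 35.2% to 48.2% in SW480-NC, without overlap. NFKB2 ranged from 22.6% to 24.6% and from 18.5% to 25.9%, and RELB from 4.56% to 7.08% and from 4.66% to 6.64%. RELB thus made up the smallest share in every library. Since these shares sum to 100%, the low RELA value of SW480-NC replicate 3 raises the shares of the others there.

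The inhibitors NFKBIA and NFKBIE, which hold dimers in the cytoplasm, had higher values in SW480-KD1 without overlap, and neither passed the adjusted threshold. NFKBIA (ENSG00000100906, chromosome 14, 35401511 to 35404749, minus strand), the inhibitor that RELA dimers induce most directly, had 533.5, 472.3 and 478.6 normalized counts in SW480-KD1 and 418.4, 458.7 and 414.6 in SW480-NC. The groups did not overlap, although 472.3 and 458.7 are close. Its log2 fold change was 0.20 (SE 0.10, 95% interval −0.04 to 0.44; limma, adjusted p = 0.390). NFKBIE (ENSG00000146232, chromosome 6, 44258166 to 44265788, minus strand), a second inhibitor of this kind, had 266.8, 242.9 and 211.0 in SW480-KD1 and 154.8, 196.1 and 207.8 in SW480-NC. Again the groups were apart, by 211.0 against 207.8 at the nearest. The means of 240.2 ± 28 and 186 ± 27.8 (SD, n = 3) gave a log2 fold change of 0.37 (SE 0.16; limma, adjusted p = 0.310), with an unadjusted p of 0.0511 from limma. BCL3 (ENSG00000069399, chromosome 19, 44747705 to 44760044, plus strand), a nuclear member of the inhibitor family that binds the processed precursors, overlapped between the lines. It had 262.6, 206.8 and 187.5 in SW480-KD1 and 279.3, 219.2 and 214.2 in SW480-NC, for a log2 fold change of −0.12 (95% interval −0.52 to 0.28, adjusted p = 0.770 from limma). Replicate 1 was the highest in both lines.

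TNFAIP3 (ENSG00000118503, chromosome 6, 137867188 to 137883312, plus strand) encodes the ubiquitin-editing enzyme that shuts the signal off upstream of the kinases, and it had the largest negative fold change of the 10 genes. It had 147.6, 151.7 and 112.1 normalized counts in SW480-KD1 and 237.4, 186.4 and 167.5 in SW480-NC. All SW480-KD1 libraries were below all SW480-NC libraries. The means were 137 ± 21.8 and 197 ± 36.2 (SD, n = 3), so that 69.6% of the SW480-NC level was present, a log2 fold change of −0.52 (SE 0.19, 95% interval −0.95 to −0.08; limma, adjusted p = 0.243). Its unadjusted p of 0.0261 from limma became 0.0960 without SW480-NC replicate 1 and 0.0857 without SW480-KD1 replicate 3. TNFAIP3 and NFKBIA, both classical feedback genes with matches to the consensus in the promoter, pointed in opposite directions. TNFAIP3 stood at 0.277, 0.321 and 0.234 of NFKBIA in SW480-KD1 and at 0.568, 0.406 and 0.404 in SW480-NC. This ratio did not overlap between the lines and was 1.64-fold lower in SW480-KD1 (two-sided exact permutation p = 0.1, and 0.3 adjusted over the 6 ratios). Its separation and exact p follow from the single genes, as every SW480-KD1 library was lower for TNFAIP3 and higher for NFKBIA.

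BIRC3 (ENSG00000023445, chromosome 11, 102317450 to 102339403, plus strand), an inhibitor of apoptosis and ubiquitin ligase of the receptor complex, had 256.2, 304.3 and 251.5 normalized counts in SW480-KD1 and 324.3, 320.6 and 321.3 in SW480-NC. The lines did not overlap. Its log2 fold change was −0.26 (SE 0.12, 95% interval −0.53 to 0.02; limma, adjusted p = 0.336). The SD of 1.94 in SW480-NC was smaller than the 18.2 that counting error alone gives at these reads. BIRC2, a related ligase whose gene starts 7808 bases further along the chromosome, had 1125, 643.0 and 960.9 in SW480-KD1 and 753.1, 648.0 and 693.5 in SW480-NC, with overlap. ICAM1 (ENSG00000090339, chromosome 19, 10270835 to 10286615, plus strand) encodes the adhesion molecule that binds leukocyte integrins. It had 858.3, 863.4 and 860.1 in SW480-KD1 and 783.5, 731.1 and 938.4 in SW480-NC. The SW480-KD1 values lay inside the SW480-NC range, and the log2 fold change was 0.08 (95% interval −0.18 to 0.34, adjusted p = 0.754 from limma). Their SD of 2.57 was also smaller than counting error alone gives, here 28.8. Exons of ICAM1 overlap genes annotated on the opposite strand, as do those of TNFAIP3 and RELA, and MIR8085 lies within BCL3. The counting is not stated to use strand, so reads there cannot be told apart.

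**Figure D1:**
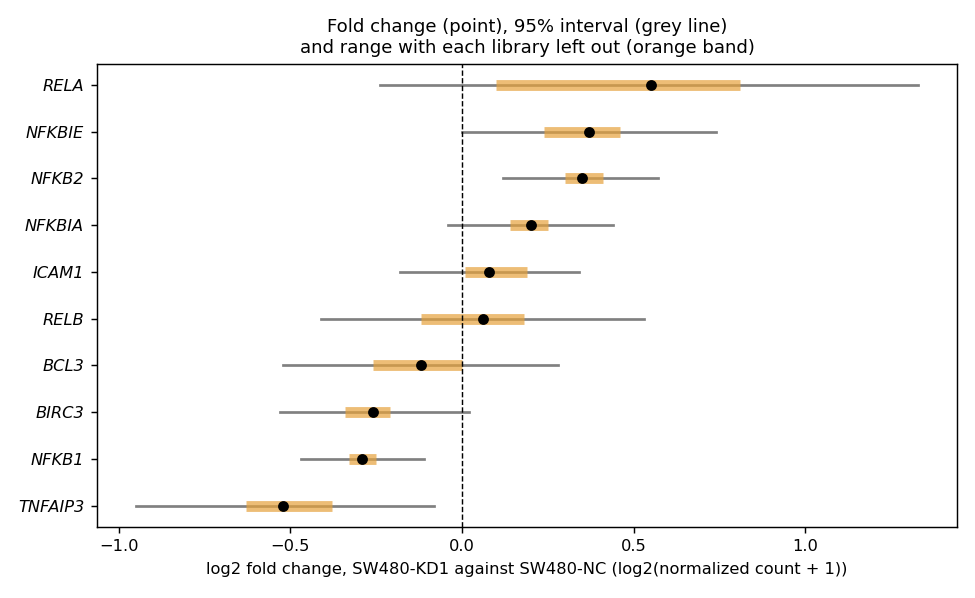
Log2 fold change of each gene in SW480-KD1 against SW480-NC on log2(normalized count + 1) (points), with the 95% interval from limma (grey lines) and the range when each library is left out in turn (orange bands). RELA has the widest interval, −0.24 to 1.33, and NFKB1, NFKB2 and TNFAIP3 are the genes whose interval leaves out 0.

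Ranked by normalized count per kilobase of exon over the 6 libraries, with the same joined exon length, RELA was first with a mean of 337 and NFKB1 second with 308. Their ranges overlapped, and NFKB1 was below RELA in 4 of the 6 libraries. ICAM1 at 226, NFKB2 at 201 and NFKBIA at 195 followed, and each overlapped the next. After a gap came NFKBIE at 82.6, BCL3 at 70.4, RELB at 51.8, BIRC3 at 39.4 and TNFAIP3 at 33.1, whose neighbours also overlapped in range. The order of the means depended on the line at some places: in SW480-NC, NFKB1 at 339 stood above RELA at 287, and BCL3 at 73.3 above NFKBIE at 72.2. The steps from NFKB1 to ICAM1 and from NFKBIA to NFKBIE were the ones where the ranges were apart. The lowest member, TNFAIP3, rested on 119 to 227 reads per library.

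**Figure D2:**
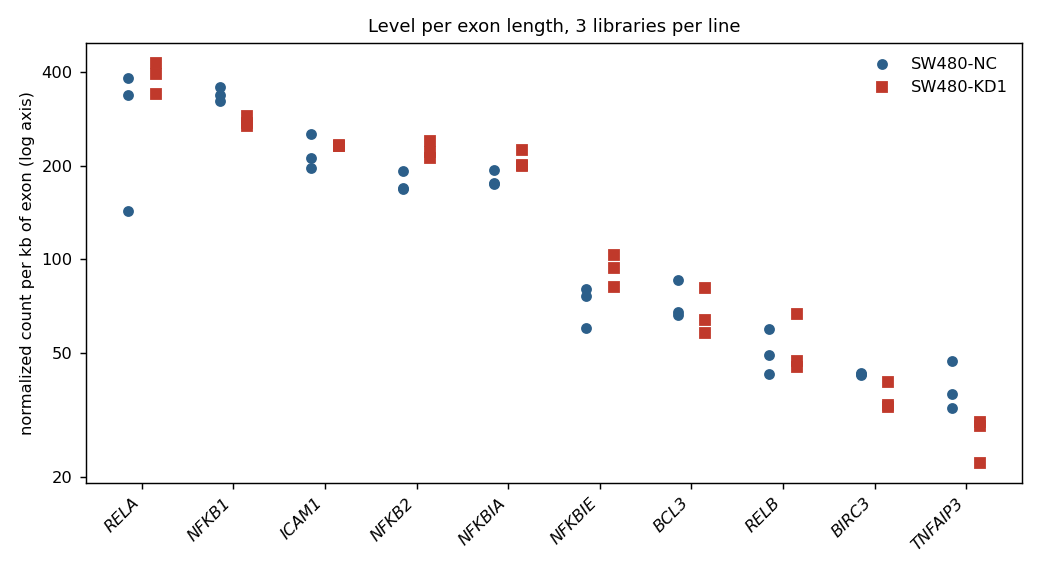
Level per kilobase of annotated exon (log axis) of the 10 genes in order of their mean, with SW480-NC as circles and SW480-KD1 as squares (3 libraries per line). Values span from 22.2 for TNFAIP3 to 429 for RELA.

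The remaining ratios overlapped between the lines. NFKBIA to RELA was 0.228, 0.220 and 0.258 in SW480-KD1 and 0.201, 0.249 and 0.531 in SW480-NC. The high value belongs to SW480-NC replicate 3, the library with the low RELA count, and the log2 difference of −0.35 turned to 0.07 without it. NFKBIE to NFKBIA averaged 0.485 ± 0.0389 and 0.433 ± 0.0658 (SD, n = 3), with an exact permutation p of 0.3. BIRC3 to TNFAIP3 averaged 2.00 ± 0.254 and 1.67 ± 0.280 (SD, n = 3), with an exact permutation p of 0.2.

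The wider pathway was read from 6 lists of genes that are not among the 10. Each count is given with the share of all features past the same threshold, which at the adjusted threshold was 0.802%. Of the other subunits and inhibitors, 6 of 9 were in the table and tested, 0 passed the adjusted threshold, and 1 had an unadjusted p under 0.05 (16.2% of all features). That gene was NFKBIZ, a nuclear inhibitor and co-activator, at 2101 ± 239 in SW480-KD1 and 2757 ± 73.8 in SW480-NC (SD, n = 3), a log2 fold change of −0.40 (limma, adjusted p = 0.116). NKIRAS2, which slows the degradation of NFKBIB, was next, with 0.21 (limma, adjusted p = 0.389). NFKBIB itself held 513.5, 558.1 and 143.2 in SW480-KD1, where replicate 3 was far below the others, and 327.4, 337.1 and 474.0 in SW480-NC. REL, the remaining subunit of the family, was not analysed here.

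Among the IKK complex and upstream kinases, 10 of 14 were tested and 3 had an unadjusted p under 0.05, all lower in SW480-KD1, with 0 past the adjusted threshold, where 16.2% of all features had such a p and 8.15% were lower with it. IRAK4, the kinase directly below interleukin-1 and Toll-like receptors, had 419.7, 339.6 and 349.5 normalized counts in SW480-KD1 and 524.1, 714.7 and 655.3 in SW480-NC. The lines did not overlap, and the log2 fold change was −0.77 (SE 0.15; limma, adjusted p = 0.0783). RIPK1, the scaffold kinase of the tumor necrosis factor receptor complex, followed with −0.24 (limma, adjusted p = 0.206). CHUK and IKBKG of the IKK complex had no row of their own and were not analysed. IKBKB of that complex had a log2 fold change of 0.09 (limma, adjusted p = 0.7). In the list of adaptors and ubiquitin enzymes, 15 of 19 were tested and 2 had an unadjusted p under 0.05, a share below the 16.2% of all features. These were BCL10, an adaptor that activates the IKK complex, with −0.42 (limma, adjusted p = 0.104), and XIAP, with −0.30 (limma, adjusted p = 0.236).

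Of the receptors, 8 of 15 were tested and 0 had an unadjusted p under 0.05, against 16.2% of all features. With so few genes tested, a count of 0 says little. TNFRSF1A, the main receptor for tumor necrosis factor, had a log2 fold change of −0.21 (95% interval −0.45 to 0.02), and TLR3, a sensor of double-stranded RNA, had 0.40 (95% interval −0.05 to 0.86). Of the ligands, 6 of 12 were tested, 0 passed the adjusted threshold and 3 had an unadjusted p under 0.05, 2 higher and 1 lower, against 8.10% and 8.15% of all features. IL33, an alarmin of epithelial cells, had 11.6, 14.4 and 22.6 normalized counts in SW480-KD1 and 38.7, 46.4 and 55.1 in SW480-NC, for a log2 fold change of −1.51 (SE 0.32; limma, adjusted p = 0.0979). TNFSF15 had 609 ± 34.0 and 493 ± 22.2 (SD, n = 3), with a log2 fold change of 0.30 (limma, adjusted p = 0.195).

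Other known targets of NF-kappa-B were the list with genes past the adjusted threshold. Of 32 genes 19 were tested, 1 rose and 2 fell, against 0.332% and 0.470% of all features. An unadjusted p under 0.05 was found for 7 genes, 4 higher and 3 lower, against 8.10% and 8.15%. LCN2, an iron-binding defence protein, rose from 140 ± 34.8 to 357 ± 3.66 normalized counts (SD, n = 3), with a log2 fold change of 1.37 (limma, adjusted p = 0.0353). The SD of 3.66 in SW480-KD1 was smaller than the 18.6 that counting error alone gives at these reads. The chemokine gene CXCL8 fell from 511 ± 76.4 to 246 ± 41.9 (SD, n = 3), with −1.05 (limma, adjusted p = 0.0435). PTGS2, the inducible cyclooxygenase, fell from 110 ± 6.17 to 53.2 ± 6.98 (SD, n = 3), with −1.04 (limma, adjusted p = 0.0481). Leaving out any of the 6 libraries raised the adjusted p of CXCL8 and PTGS2 above 0.05, and LCN2 stayed under 0.05 only without SW480-NC replicate 2. Without limma's trend option the adjusted p was 0.124 for LCN2, 0.136 for CXCL8 and 0.0859 for PTGS2. The adjusted p of CXCL8 was also above 0.05 under quantile normalization (0.0507) and in edgeR (0.0518), and that of PTGS2 with a pseudocount of 5 (0.0510), TMM (0.0513), no minimum (0.0581) and edgeR (0.0608). These 3 genes were among those the study selected on the same libraries, so their direction here is not independent evidence. The study also measured CXCL8 and PTGS2 by qRT-PCR and reports results that match its sequencing. LCN2 is not among the genes it names for that check. The median log2 fold change of this list was 0.09, and its values ran from −1.27 to 1.37.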

How the data were processed

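RNA sequencing covered 3 SW480-NC and 3 SW480-KD1 libraries, grouped by the genotype label. Per the labels, the submitters' processing notes name bcl2fastq, HISAT2, DESeq2 and GRCh38, and the study's methods name Cuffdiff. The counter, assembler and annotation are not given in the sources used here. Each deposited value is a signal, a count of reads on a feature after the authors scaled every library by a size factor. Divided by the smallest value above 0 of its library, 100% of them came out whole (tolerance 0.01). Of the 59192 features, 25927 have an Ensembl identifier, 25764 of these with a symbol, and 33265 are assembler loci. A listed gene without a row may lie within such a locus.

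The comparison used limma 3.58.1 (R 4.3.3) with its trend option on log2 values (pseudocount 1) of features averaging 10 normalized counts or more, with Benjamini-Hochberg adjustment over all of them. Fold changes are on this scale, and p-values weigh them against the spread between the 3 experiments of each line. With its trend option, limma draws the variance of each gene towards a trend fitted over all features tested. A p-value from limma therefore does not rest on the spread of that gene alone. Ratios were compared by exact permutation tests (scipy 1.17.1). Alternatives were edgeR 4.0.16, DESeq2 1.42.0, other scalings, filters and pseudocounts, the replicate number as a block, and each library left out. On simulated counts for the 21703 features with 4-fold changes, limma recovered 156 of 196 changed features with 14 false among 170 calls, edgeR recovered 159 with 15 false among 174, and DESeq2 recovered 169 with 56 false among 225. Changes as small as those of the 10 genes were not simulated, so these rates do not tell how often such changes would be called. Figures were drawn with matplotlib 3.10.9.

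Named genes were HPSE, the 10 members, and from each other list the genes with an adjusted p under 0.05 or otherwise the 2 with the smallest unadjusted p. Others are named where a result turns on them, and were chosen after their values were seen. The members and lists were chosen with earlier results of these data known. Exon lengths and positions are from GENCODE 29.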

Additional observations from a re-analysis of the deposited data

How the results depend on the processing

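The count of members past the adjusted threshold was 0 under each of the 11 alternatives and in the 6 fits without 1 library, and the count at an unadjusted p under 0.05 ranged from 2 to 4. HPSE had an adjusted p under 0.05 in 4 of these settings, with its log2 fold change at −0.83. They were limma with no minimum (0.0451), a mean of at least 50 (0.0460) or Ensembl genes only (0.0462), and DESeq2 (0.000924). In the other 13 its adjusted p was above 0.05, among them edgeR (0.0664), and limma with quantile normalization (0.0507) or without the trend option (0.126). With each library left out, its log2 fold change ranged from −0.93 to −0.76 and its adjusted p from limma from 0.0777 to 0.199. The median of the members ranged from −0.004 to 0.11 in the latter fits. RELB turned to −0.02 under quantile normalization, −0.12 when SW480-KD1 replicate 2 was left out and −0.06 for SW480-NC replicate 1 (range −0.12 to 0.18), BCL3 turned to 0.00028 without SW480-NC replicate 1 (range −0.26 to 0.00028), and the NFKBIA to RELA log2 difference ranged from −0.63 to 0.07, the latter without SW480-NC replicate 3; the cause was not tested. With each library left out, unadjusted calls ranged from 1 to 3 among other subunits and inhibitors, from 1 to 4 among kinases, from 1 to 4 among adaptors and from 0 to 1 among receptors, where the fit with no minimum also gave 1. The share of 16.2% of all features at the unadjusted p belongs to the main fit. No such share was worked out for the other fits, so their unadjusted counts cannot be set against one. The replicate numbers did not pair the libraries, as deviations of same-numbered libraries correlated at 0.00246, −0.0202 and 0.00741. With the replicate number as a block, 0 members passed the adjusted threshold and 4 the unadjusted one, and the adjusted p was 0.169 for HPSE, 0.103 for LCN2, 0.185 for CXCL8, 0.185 for PTGS2 and 0.0610 for KRT20. Depth limits TNFAIP3 and RELB most, at 119 to 227 and 124 to 224 reads.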

Other observations

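Several ligand and receptor genes lay under the minimum for testing and were read only as counts, chosen after their values were seen. TNF had 4, 3 and 4 reads in the SW480-KD1 libraries and 0 in each SW480-NC library. A count of 0 allows up to 3 reads per library, so no fold is given. TLR5, the receptor for bacterial flagellin, had 13, 15 and 17 reads in SW480-KD1 and 3, 3 and 7 in SW480-NC.

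NFKB1 had the smallest unadjusted p of the 10 genes. Over 12619 features with a symbol, the levels most like it across the 6 libraries were those of HSP90AB3P (Pearson's r = 0.995), PLEKHB2 (0.993) and CD44 (0.992). These values describe 6 points that fall into 2 groups. HSP90AB3P is a pseudogene, and its reads cannot be told apart from those of its parent gene where the sequences are the same. CD44, the cell surface receptor for hyaluronan, had 22848, 22125 and 23781 normalized counts in SW480-KD1 and 26126, 27756 and 28070 in SW480-NC.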
